A study of Mus musculus with 21 samples.

Results

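The responses of mouse embryonic stem cells to the loss of RPLP1 and to the loss of RPLP0 were compared gene by gene. Every gene listed for both lines was used, and for each gene the log2 change after RPLP0 removal was subtracted from the log2 change after RPLP1 removal, once for mRNA and once for ribosome footprints. The authors' deposited tables held 12274 genes for the RPLP1 line and 12353 for the RPLP0 line. Of the 11969 genes in both, 16 had a symbol that a spreadsheet had turned into a date and 2 shared a symbol, which left 11951 of the 13253 genes listed in any of the series' 3 tables. The cells were E14 mouse embryonic stem cells with the genotype RPLP1-AID/RPS26-Tir1 or RPLP0-AID/RPS26-Tir1. AID is a degron tag, and Tir1 is the plant receptor that marks AID-tagged proteins for degradation once the auxin IAA is added. Each line was treated for 8 h with IAA or with its solvent DMSO, and each had 3 mRNA samples after IAA, 3 mRNA samples after DMSO and 1 footprint sample in which all replicates of both treatments were combined. Both lines and both treatments carried Tir1 on RPS26, a protein of the small subunit, and a line without a degron was not analysed here, so an effect of IAA itself cannot be told apart from removal of the tagged protein. The labels leave unsaid whether a line was 1 clone, and whether the replicates were grown as separate cultures; the spread behind the error rates may be technical.

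The stalk is a flexible arm of the large ribosomal subunit. RPLP0 is its base and sits on the ribosomal RNA, and RPLP1 forms heterodimers with RPLP2 that bind to RPLP0. The stalk recruits the GTPases of translation, among them the elongation factors, and stimulates their GTP hydrolysis; in mammalian cells it can also activate the kinase GCN2, which leads to translation of the transcription factor ATF4.

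The values were the authors' log2 changes and false discovery rates (FDR, an adjusted p-value), so neither a value per sample nor the read depth is known. The headers do not say which treatment was on top of the ratio, and a positive log2 change was read as higher after IAA. A gene is called in a line where the authors' FDR is below 0.05. Each fold change and its FDR imply a standard error (SE), and the difference between the lines was tested against the combined SE with Benjamini-Hochberg adjustment over all 11951 genes, at an adjusted p below 0.05. The median implied SE was 0.113 in the RPLP1 line and 0.102 in the RPLP0 line for mRNA, and 0.0852 in the RPLP1 line and 0.11 in the RPLP0 line for footprints. It is not stated what spread lies behind the footprint FDRs, which come from 1 combined sample a line. The difference test depends on the size of these errors: with errors 1.5 times as large, 6 genes were higher and 29 lower on mRNA, and no gene passed on footprints. The text therefore gives the authors' calls in each line beside each difference. The 7 embryonic stem cell markers looked for, such as Pou5f1, Sox2 and Nanog, were all listed in both tables, as were 4 of 8 feeder fibroblast markers. The mRNA difference passed for 3 of the 7 and for none of the 4, beside 1449 of all 11951 genes.

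The mRNA changes after the 2 removals were weakly correlated across genes. Across the 11951 genes the log2 changes had a Pearson correlation of 0.107 and a Spearman correlation of 0.0919, given as a description, since genes are not independent. By the authors' deposited tables, 689 mRNAs (5.77% of the genes) were higher and 1047 (8.76%) lower after RPLP1 removal, against 614 (5.14%) higher and 601 (5.03%) lower after RPLP0 removal. Called in both lines were 299 mRNAs (2.5%), and 188 of them (1.57%) went the same way, 79 higher and 109 lower. These 188 are 10.8% of the genes called after RPLP1 removal and 15.5% of those called after RPLP0 removal. Whether the calls overlapped more than independent calls would was not tested. A further 111 mRNAs were called in both lines in opposite directions (0.929% of all genes), 82 of them lower after RPLP1 removal and higher after RPLP0 removal, and 29 higher after RPLP1 removal and lower after RPLP0 removal.

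The test of the difference passed for 581 mRNAs (4.86%) that were higher and 868 (7.26%) that were lower after RPLP1 removal than after RPLP0 removal, with 3074 at an unadjusted p below 0.05. All 111 oppositely called mRNAs passed it, and 7 of the 188 called the same way did. Both counts follow largely from the selection, since the test uses the same changes and errors as the calls. A call in 1 line alone often came without a difference that passed: of the mRNAs called after RPLP1 removal alone, 221 of 581 higher and 417 of 856 lower passed the test, and of those called after RPLP0 removal alone, 200 of 453 higher and 194 of 463 lower did. Among the 868 mRNAs with a lower value after RPLP1 removal, the median log2 change was -0.311 after RPLP1 removal and 0.184 after RPLP0 removal; these genes were selected for that difference.

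Footprint calls were fewer. The authors' deposited tables gave 421 genes (3.52%) higher and 592 (4.95%) lower after RPLP1 removal, against 171 (1.43%) higher and 126 (1.05%) lower after RPLP0 removal. In both lines 30 genes were higher, 27 were lower and 3 (0.0251%) were called in opposite directions. The log2 footprint changes of the lines had a Pearson correlation of 0.0978 and a Spearman correlation of 0.0206 across genes. The difference passed for 194 genes (1.62%) that were higher and 374 (3.13%) that were lower after RPLP1 removal than after RPLP0 removal, with 2843 at an unadjusted p below 0.05. All 30 genes with more footprints in both lines had the larger log2 increase after RPLP0 removal. The smaller implied errors of the RPLP1 line let smaller changes be called there, and their part in this was not tested.

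**Figure D1:**
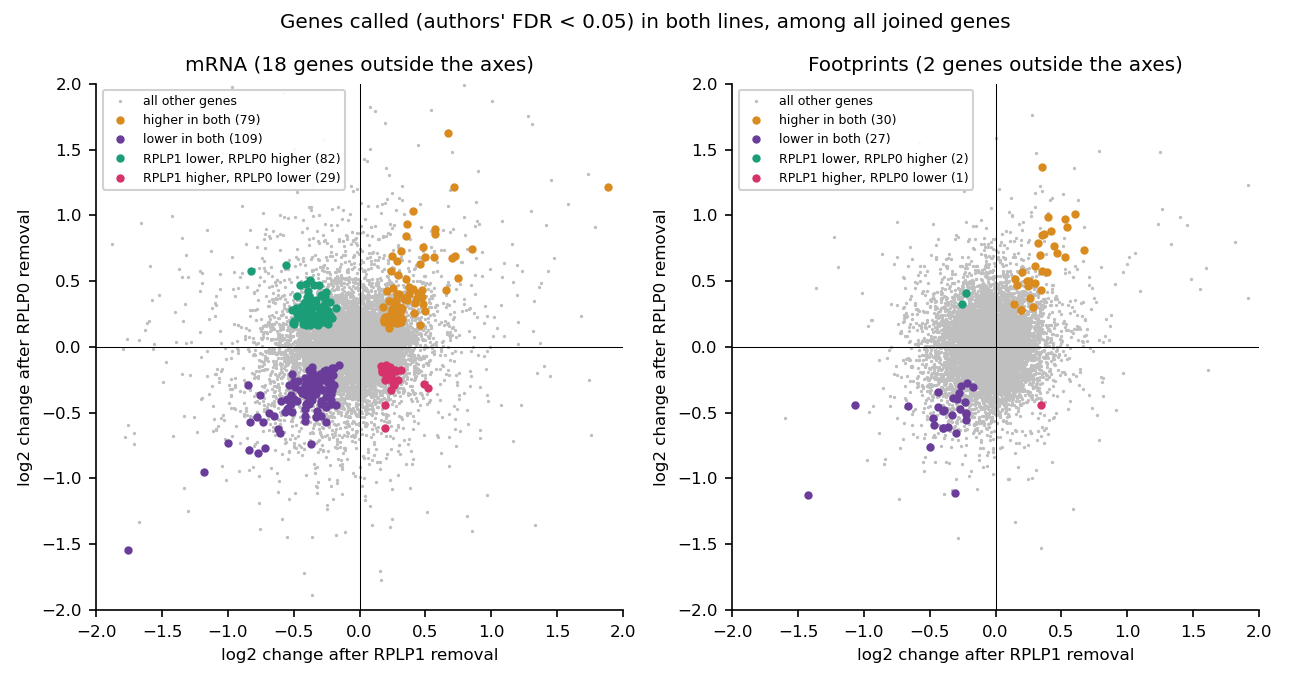
Log2 change after RPLP1 removal (horizontal axis) against log2 change after RPLP0 removal (vertical axis) for mRNA and footprints, 1 point per gene. Coloured points are genes with the authors' FDR below 0.05 in both lines: for mRNA 79 higher in both, 109 lower in both, 82 lower after RPLP1 removal and higher after RPLP0 removal, and 29 the other way; grey points are all other genes.

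Rplp0 footprints fell by 0.38 on the log2 scale after RPLP1 removal (FDR 0.00024) and had a value of 0.36 after RPLP0 removal (FDR 0.0817) in the authors' deposited tables. The difference of -0.74 (SE 0.144) passed the test. The Rplp0 mRNA differed less, with log2 changes of -0.16 after RPLP1 removal (FDR 0.0143) and -0.08 after RPLP0 removal (FDR 0.122) in the authors' deposited tables, and its difference of -0.08 (SE 0.061) did not pass. Rplp2, which encodes the partner of RPLP1, fell by 0.20 after RPLP1 removal (FDR 0.00911) and had -0.04 after RPLP0 removal (FDR 0.672) in mRNA per the authors' deposited tables, and the difference of -0.17 (SE 0.0745) did not pass. The Rplp1 mRNA had -0.14 after RPLP1 removal (FDR 0.0605) and 0.03 after RPLP0 removal (FDR 0.751) in the authors' deposited tables, without a difference that passed. A degron acts on the protein, so these mRNAs do not check the removal, and protein levels are not part of these values.

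Of the 82 mRNAs called lower after RPLP1 removal and higher after RPLP0 removal, the 8 whose smaller change was the largest are given here, and others stand with their gene lists. Galnt2, which starts mucin-type O-glycosylation in the Golgi, fell by 0.82 in mRNA after RPLP1 removal (FDR 3.14e-05) and rose by 0.58 after RPLP0 removal (FDR 4.52e-05) in the authors' deposited tables, the largest mRNA difference (-1.40, SE 0.188) among genes with an implied SE below 0.25 in both lines. Its footprints had -0.21 after RPLP1 removal and -0.31 after RPLP0 removal in the same authors' deposited tables, neither called. Man2b1, the lysosomal alpha-mannosidase, fell by 0.45 after RPLP1 removal (FDR 0.000653) and rose by 0.47 after RPLP0 removal (FDR 0.000153) in the authors' deposited tables, a difference of -0.92 (SE 0.142). Slc28a1, a nucleoside transporter, fell by 0.48 after RPLP1 removal (FDR 0.000879) and rose by 0.38 after RPLP0 removal (FDR 3.64e-05) per the authors' deposited tables, a difference of -0.86 (SE 0.133). The other 5 of these 8 were Vwa1, a matrix protein of basement membranes (difference -1.18, SE 0.276), Atraid (-0.88, SE 0.211), the fatty acid transporter Slc27a3 (-0.82, SE 0.174), the lipid droplet protein seipin encoded by Bscl2 (-0.78, SE 0.175) and the lysosomal acid phosphatase Acp2 (-0.77, SE 0.169). Footprint differences passed in the same direction for Man2b1, Slc28a1, Atraid, Slc27a3, Bscl2 and Acp2, and did not pass for Galnt2 and Vwa1.

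Flna and Slc33a1 were the 2 genes with footprints lower after RPLP1 removal and higher after RPLP0 removal. Flna, an actin crosslinker, had footprint changes of -0.26 after RPLP1 removal (FDR 0.0182) and 0.33 after RPLP0 removal (FDR 0.0123) in the authors' deposited tables, and its mRNA had -0.27 (FDR 0.00169) after RPLP1 removal and 0.32 (FDR 1.44e-06) after RPLP0 removal. The mRNA and footprint differences were both -0.59 (SE 0.0857 for mRNA and 0.112 for footprints). Slc33a1, the acetyl-CoA transporter of the endoplasmic reticulum, had footprint changes of -0.22 after RPLP1 removal (FDR 0.0412) and 0.41 after RPLP0 removal (FDR 0.0266) per the authors' deposited tables, a difference of -0.63 (SE 0.137).

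The reverse class held 29 mRNAs, of which the 8 with the largest smaller change are given here. Eif5b, the GTPase that joins the ribosomal subunits during initiation, rose by 0.49 in mRNA after RPLP1 removal (FDR 0.000687) and fell by 0.29 after RPLP0 removal (FDR 0.00112) in the authors' deposited tables, a difference of 0.78 (SE 0.13). Its footprint difference of 0.49 (SE 0.142) passed as well, although neither line was called. Zfp459, a zinc finger gene, rose by 0.52 after RPLP1 removal (FDR 0.000223) and fell by 0.32 after RPLP0 removal (FDR 0.0207) in the authors' deposited tables, a difference of 0.84 (SE 0.146). Igf2bp3, an RNA-binding protein, differed by 0.56 (SE 0.115), the heterochromatin protein gene Mphosph8 by 0.55 (SE 0.118), Zfp229 by 0.55 (SE 0.116), Rbmxl1 by 0.53 (SE 0.094), Bex4 by 0.47 (SE 0.105) and the mitochondrial adenylate kinase gene Ak4 by 0.47 (SE 0.0956). Parp4 was the 1 gene with more footprints after RPLP1 removal (0.35, FDR 0.0447) and fewer after RPLP0 removal (-0.44, FDR 0.0324) in the authors' deposited tables, a difference of 0.79 (SE 0.173).

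**Figure D2:**
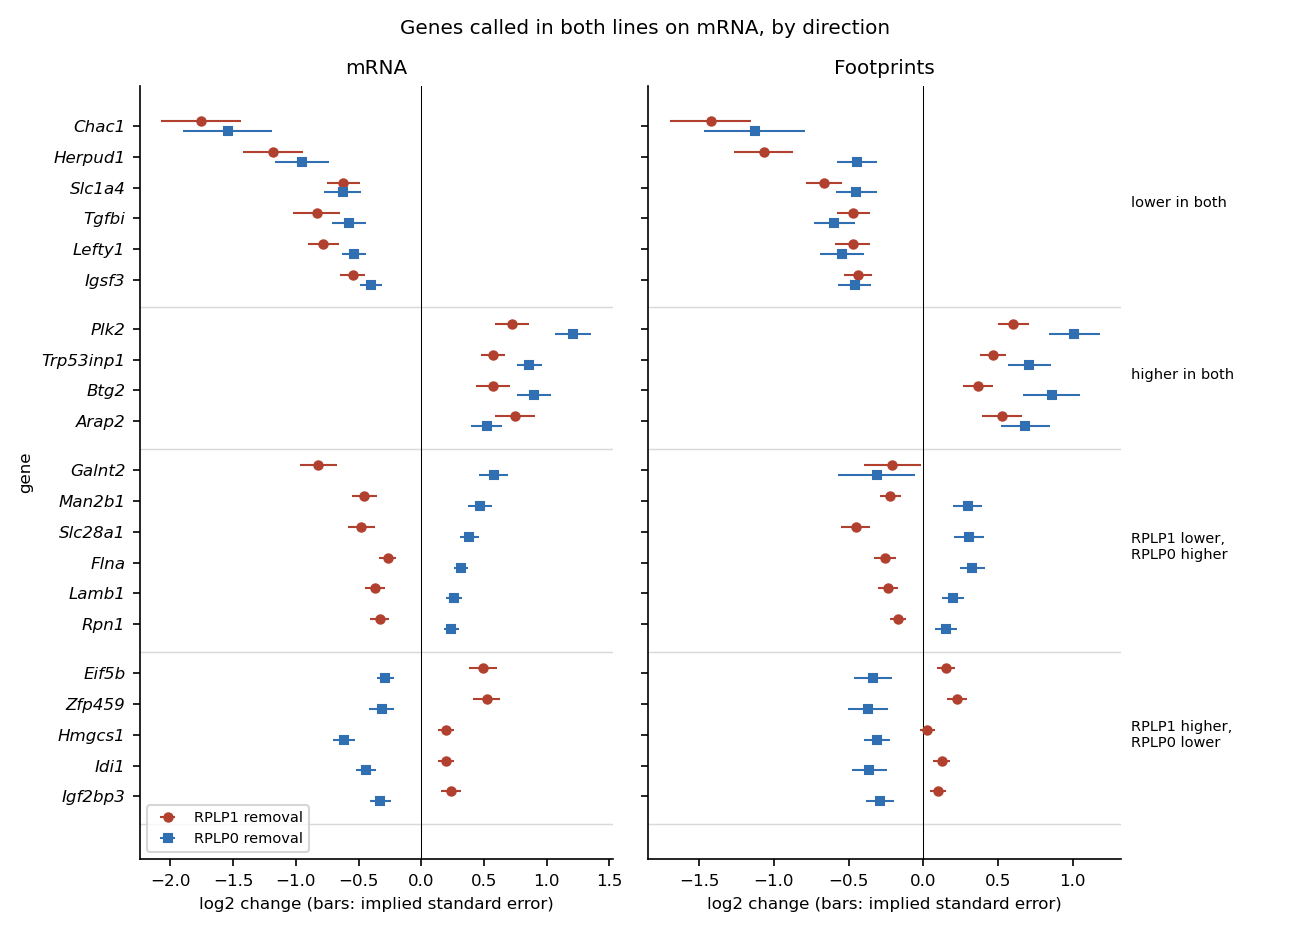
Log2 changes of mRNA (left) and footprints (right) for genes called in both lines on mRNA, grouped by direction; circles are RPLP1 removal, squares RPLP0 removal, and bars the implied standard error. Chac1 sits far below 0 in both lines, while Man2b1 has -0.45 after RPLP1 removal and 0.47 after RPLP0 removal.

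Lists of genes with a shared function were chosen with earlier results of these data known, and no list was tested. They describe where the lines parted. Genes for N-glycosylation, which attach and trim sugars on proteins entering the endoplasmic reticulum, had a median mRNA change of -0.25 after RPLP1 removal and 0.13 after RPLP0 removal over 39 members, beside medians over all genes of -0.0037 after RPLP1 removal and 0.0003 after RPLP0 removal. The difference was lower after RPLP1 removal for 16 members and higher for none, 41.0% against 7.26% of all genes, and 36 of 39 members had a difference below 0. Of the 39 mRNAs, 13 fell after RPLP1 removal and 8 rose after RPLP0 removal, and 5 genes are in both counts. Over all genes 8.76% fell after RPLP1 removal, 5.14% rose after RPLP0 removal, and 82 of 11951 did both. For footprints 12 members differed, with medians of -0.16 after RPLP1 removal and 0.16 after RPLP0 removal. Rpn1 and Rpn2 encode subunits of the oligosaccharyltransferase, which transfers the glycan. Rpn1 mRNA fell by 0.33 after RPLP1 removal (FDR 0.000967) and rose by 0.24 after RPLP0 removal (FDR 0.00232) in the authors' deposited tables, a difference of -0.57 (SE 0.0974). Rpn2 fell by 0.33 after RPLP1 removal (FDR 0.00208) and rose by 0.19 after RPLP0 removal (FDR 0.0141) in the authors' deposited tables, a difference of -0.53 (SE 0.101). Prkcsh and Ganab, the subunits of glucosidase II, differed by -0.58 (SE 0.106) and -0.48 (SE 0.0872). Stt3a, a catalytic subunit of the same transferase, had -0.13 on mRNA and -0.12 on footprints after RPLP1 removal, not called, and rose by 0.30 in both mRNA (FDR 0.000124) and footprints (FDR 0.042) after RPLP0 removal in the authors' deposited tables.

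Genes for targeting and translocation into the endoplasmic reticulum gave 14 of 40 members with a lower mRNA difference (35.0%) and 2 with a higher one. Sec61a1, the channel of the translocon, fell by 0.29 after RPLP1 removal (FDR 0.00468) and rose by 0.19 after RPLP0 removal (FDR 0.0063) in the authors' deposited tables, a difference of -0.48 (SE 0.0943). Ssr2, of the translocon-associated complex, fell by 0.24 after RPLP1 removal (FDR 0.0114) and rose by 0.27 after RPLP0 removal (FDR 0.00013) in the authors' deposited tables. Emc1 and Emc10, of the complex that inserts membrane proteins, fell by 0.36 (FDR 0.00259) and 0.40 (FDR 0.000396) after RPLP1 removal and had values of 0.14 and 0.17 after RPLP0 removal, not called, in the authors' deposited tables. The signal peptidase subunit Spcs1 had footprint changes of -0.25 after RPLP1 removal (FDR 0.0732) and 0.53 after RPLP0 removal (FDR 0.00976) in the authors' deposited tables, a difference of -0.78 (SE 0.162).

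Genes of the basement membrane and extracellular matrix had a median mRNA change of -0.37 after RPLP1 removal and 0.13 after RPLP0 removal over 35 members, and 14 members (40.0%) had a lower difference and none a higher one. The laminin chains Lamb1, Lamc1 and Lama1, which assemble into the laminin of the early embryo, were all called in both lines in opposite directions. Lamb1 fell by 0.37 after RPLP1 removal (FDR 0.000514) and rose by 0.26 after RPLP0 removal (FDR 0.00104) in the authors' deposited tables, a difference of -0.63 (SE 0.102). Lamc1 fell by 0.37 after RPLP1 removal (FDR 0.000107) and rose by 0.21 after RPLP0 removal (FDR 0.00146) in the authors' deposited tables, a difference of -0.58 (SE 0.0894). Lama1 fell by 0.27 after RPLP1 removal (FDR 0.00647) and rose by 0.26 after RPLP0 removal (FDR 0.00248) in the authors' deposited tables, a difference of -0.53 (SE 0.099). The heparan sulphate proteoglycan Hspg2 (perlecan) fell by 0.37 after RPLP1 removal and rose by 0.16 after RPLP0 removal, and Col18a1 fell by 0.61 after RPLP1 removal and had 0.01 after RPLP0 removal in the authors' deposited tables. Sparc, a secreted collagen-binding protein, fell by 0.43 after RPLP1 removal (FDR 0.000575) and had 0.16 after RPLP0 removal (FDR 0.0777) in the authors' deposited tables, a difference of -0.59 (SE 0.114). A longer list of 16 fibroblast markers had 9 members in both tables, 3 of them also in the matrix list. Over the 9 the median mRNA change was -0.15 after RPLP1 removal (range -1.105 to 0.378) and -0.03 after RPLP0 removal (range -1.025 to 1.427). The highest value, 1.43 after RPLP0 removal (FDR 0.032) in the authors' deposited tables, was that of Col1a1, a member of both lists. Of the 9 differences, 6 were below 0 and 3 above, and 1 member, Col5a1, passed (-0.59, SE 0.164). Col1a1 did not pass (-1.58, SE 0.627). The part of these markers in the matrix result was not tested, and their levels are not part of these values.

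Integrins, the receptors for that matrix, had 6 of 16 members with a lower mRNA difference (37.5%) and none with a higher one. Itga5, of the fibronectin receptor, fell by 0.57 after RPLP1 removal (FDR 3.36e-05) and had -0.04 after RPLP0 removal (FDR 0.757) in the authors' deposited tables, a difference of -0.53 (SE 0.121). Itga3, a laminin-binding subunit, fell by 0.45 after RPLP1 removal (FDR 0.00155) and had 0.06 after RPLP0 removal (FDR 0.597) in the authors' deposited tables, a difference of -0.51 (SE 0.123). Both passed on footprints too, at -0.38 (SE 0.117) for Itga5 and -0.44 (SE 0.119) for Itga3.

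Solute carriers are transporters that move small molecules across membranes. Over 220 of them the median mRNA change was -0.30 after RPLP1 removal and 0.03 after RPLP0 removal, and 188 had a difference below 0. The difference passed as lower for 55 (25.0%) and as higher for 3, and on footprints as lower for 29 (13.2%) and as higher for none. By the calls in the authors' deposited tables, the mRNAs of 73 solute carriers fell and 2 rose after RPLP1 removal, against 9 that fell and 21 that rose after RPLP0 removal. The shares over all genes were 8.76% lower and 5.77% higher after RPLP1 removal, and 5.03% lower and 5.14% higher after RPLP0 removal. The 149 genes named Tmem for a transmembrane protein of unassigned function gave medians of -0.21 after RPLP1 removal and 0.10 after RPLP0 removal. In the difference 33 were lower (22.1% against 7.26% of all genes) and none higher. Tmem147, a protein of the translocon, fell by 0.44 after RPLP1 removal (FDR 0.00297) and rose by 0.31 after RPLP0 removal (FDR 0.0116) in the authors' deposited tables, a difference of -0.75 (SE 0.144).

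Among the 28 amino acid transporters in that group, 10 (35.7%) had a lower mRNA difference and none a higher one. By the calls 19 fell after RPLP1 removal and 4 after RPLP0 removal, beside 8.76% and 5.03% of all genes. Slc7a5 and Slc3a2 are the chains of the transporter LAT1, which imports leucine. Slc7a5 fell by 0.63 after RPLP1 removal (FDR 1.41e-05) and had -0.05 after RPLP0 removal (FDR 0.552) in the authors' deposited tables, a difference of -0.58 (SE 0.118). Slc3a2 fell by 0.45 after RPLP1 removal (FDR 5.65e-05) and had 0.03 after RPLP0 removal (FDR 0.758) in the authors' deposited tables, a difference of -0.49 (SE 0.101). Slc38a2 and Slc7a3, which carry small neutral and cationic amino acids, were called in opposite directions: Slc38a2 fell by 0.26 after RPLP1 removal and rose by 0.25 after RPLP0 removal, and Slc7a3 fell by 0.31 after RPLP1 removal and rose by 0.17 after RPLP0 removal in the authors' deposited tables. Slc1a4, the carrier of alanine and serine, fell in both lines and is described with the ATF4 targets. Outside amino acids, Slc4a11, a relative of the bicarbonate transporters, had -0.22 after RPLP1 removal (FDR 0.127) and rose by 0.72 after RPLP0 removal (FDR 2.86e-08) in the authors' deposited tables, a difference of -0.94 (SE 0.149). The thiamine carrier Slc19a2 was not called after RPLP1 removal (FDR 0.99) and rose by 0.71 after RPLP0 removal (FDR 3.07e-10) in the authors' deposited tables, a difference of -0.71 (SE 0.133).

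Lysosomal genes had 19 of 57 members with a lower mRNA difference (33.3%) and none with a higher one, with medians of -0.23 after RPLP1 removal and 0.07 after RPLP0 removal. Gaa, the acid alpha-glucosidase, fell by 0.34 after RPLP1 removal (FDR 0.0182) and rose by 0.33 after RPLP0 removal (FDR 0.00324) in the authors' deposited tables, a difference of -0.68 (SE 0.139). Ctsd, the protease cathepsin D, fell by 0.26 after RPLP1 removal (FDR 0.0178) and rose by 0.23 after RPLP0 removal (FDR 0.00225) in the authors' deposited tables. The V-ATPase, which acidifies the lysosome, was represented by Atp6v0c (difference -0.50, SE 0.106) and Atp6v0b (-0.47, SE 0.121). Many lysosomal genes carry an E-box read by TFEB and its relatives, and the letters TCACGTG, searched on both strands from 250 bases before to 50 bases after the start site, were found for 15 of 43 lysosomal genes with a promoter window (34.9%) against 7.32% of the 9440 such genes among those compared. The share was 7.72% among all mRNAs lower in the difference. The sites of Gaa and of Atp6v0b are shown with 24 bases on each side, from RefSeq on GRCm38.p6, with the motif in capitals; Gaa lies on the plus strand and Atp6v0b on the minus strand, each written along its gene. Another match of Atp6v0b lies in its lower-case flank.
Gaa chr11:119267798-119267852: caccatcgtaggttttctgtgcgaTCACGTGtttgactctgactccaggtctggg
Atp6v0b chr4:117887336-117887390: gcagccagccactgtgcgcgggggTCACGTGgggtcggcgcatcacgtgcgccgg

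Genes of Wnt signalling gave 6 of 33 members with a lower mRNA difference (18.2%) and none with a higher one. Porcn, which attaches the lipid that Wnt proteins need for secretion, fell by 0.81 after RPLP1 removal (FDR 6.88e-05) and had 0.04 after RPLP0 removal (FDR 0.852) in the authors' deposited tables, a difference of -0.84 (SE 0.177), and its footprint difference of -0.70 (SE 0.172) passed too. The Wnt receptor gene Fzd5 fell by 0.34 after RPLP1 removal (FDR 0.000961) and had 0.07 after RPLP0 removal (FDR 0.521) in the authors' deposited tables. The co-receptor gene Lrp6 had -0.13 after RPLP1 removal (FDR 0.171) and rose by 0.25 after RPLP0 removal (FDR 0.00491), whereas its relative Lrp5 fell by 0.50 after RPLP1 removal (FDR 6.88e-05) and had -0.15 after RPLP0 removal (FDR 0.17) in the authors' deposited tables. Their mRNA differences were -0.38 (SE 0.0945) for Lrp6 and -0.34 (SE 0.119) for Lrp5.

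Several of the largest lower mRNA differences came from genes called after RPLP0 removal alone, as higher. Eng (endoglin, a co-receptor for TGF-beta) had -0.28 after RPLP1 removal (FDR 0.0601) and rose by 0.85 after RPLP0 removal (FDR 4.34e-10) in the authors' deposited tables, a difference of -1.13 (SE 0.159). Mmrn2, an endothelial matrix protein, had 0.01 after RPLP1 removal (FDR 0.957) and rose by 1.09 after RPLP0 removal (FDR 7.44e-10) in the authors' deposited tables, a difference of -1.08 (SE 0.198). Cpt1c, a relative of the carnitine acyltransferases, had -0.21 after RPLP1 removal (FDR 0.195) and rose by 0.89 after RPLP0 removal (FDR 2.21e-09) in the authors' deposited tables, a difference of -1.09 (SE 0.169). Footprints of Eng, Mmrn2 and Cpt1c were not called after RPLP1 removal and each rose by 0.82 after RPLP0 removal in the authors' deposited tables. P2rx7 (difference -1.22, SE 0.349) and Cnga3 (-1.10, SE 0.34) are ligand-gated ion channels that also rose after RPLP0 removal alone. Slc46a3 (-1.25, SE 0.33) and the Wnt receptor gene Fzd9 (-1.07, SE 0.309) fell after RPLP1 removal alone.

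**Figure D3:**
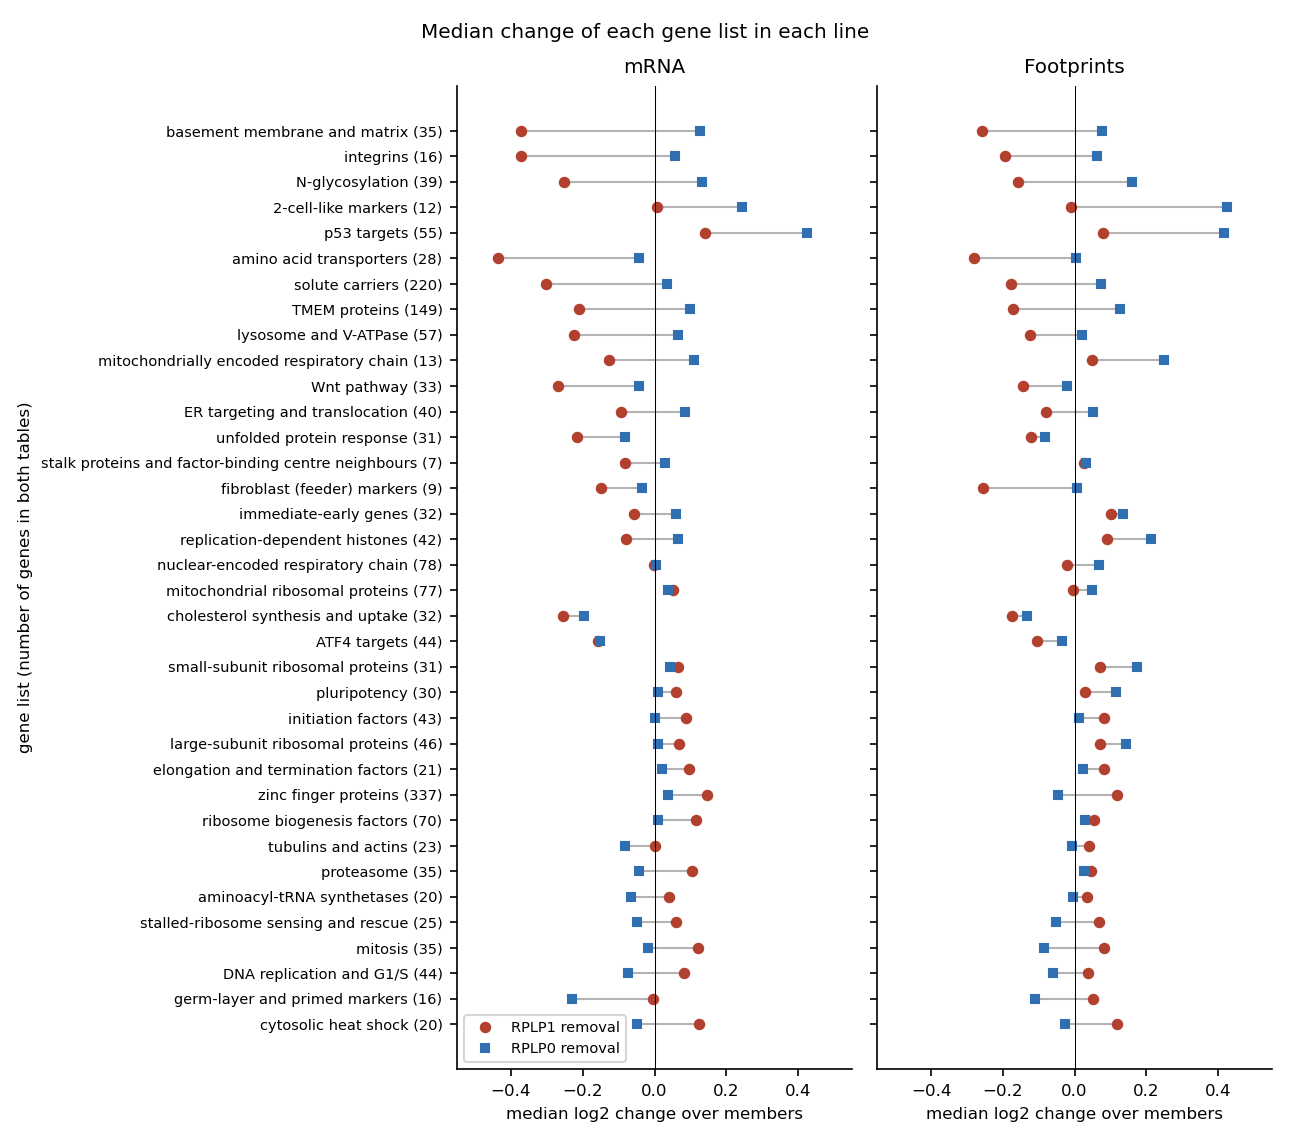
Median log2 change of each gene list after RPLP1 removal (circles) and RPLP0 removal (squares), for mRNA and footprints, ordered by the median mRNA difference. Basement membrane, integrin, N-glycosylation, 2-cell-like, p53 target and transporter genes lie at the top, with RPLP1 to the left of RPLP0. Cytosolic heat shock genes lie at the bottom, with RPLP1 to the right. The 2-cell-like list has 12 genes, and 3 of them have an implied SE below 0.25 in both lines on mRNA. Its mRNA difference passed as higher for 1 member and as lower for none.

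Targets of p53, the transcription factor that responds to DNA damage and to disturbed ribosome production, included 14 of 55 mRNAs called higher in both lines. Of 55 target mRNAs in the authors' deposited tables, 15 rose after RPLP1 removal and 36 rose after RPLP0 removal, and 1 member fell in each line. Over all genes 5.77% rose after RPLP1 removal and 5.14% after RPLP0 removal, and 79 of 11951 rose in both. The median mRNA change of the targets was 0.14 after RPLP1 removal and 0.42 after RPLP0 removal. The difference was lower after RPLP1 removal for 18 members (32.7%) and higher for 1. On footprints 13 rose after RPLP1 removal and 25 after RPLP0 removal, beside 3.52% and 1.43% of all genes. The footprint medians were 0.08 after RPLP1 removal and 0.42 after RPLP0 removal, and 10 members (18.2%) passed as lower.

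Members rising in both lines included Plk2, a kinase that p53 induces, which rose by 0.72 after RPLP1 removal (FDR 4.64e-05) and by 1.21 after RPLP0 removal (FDR 1.85e-13) in the authors' deposited tables, without a difference that passed (-0.49, SE 0.196). Trp53inp1, which promotes p53-dependent cell death, rose by 0.57 after RPLP1 removal (FDR 1.41e-05) and by 0.86 after RPLP0 removal (FDR 1.39e-13) in the authors' deposited tables. The antiproliferative gene Btg2 rose by 0.57 after RPLP1 removal (FDR 0.00131) and by 0.90 after RPLP0 removal (FDR 1.15e-08) in the authors' deposited tables, and neither of their differences passed. Mdm2, the ubiquitin ligase of p53, named here after its values were seen, rose by 0.48 after RPLP1 removal (FDR 6.41e-05) and by 0.76 after RPLP0 removal (FDR 1.55e-12) in the authors' deposited tables, and its difference of -0.28 (SE 0.13) did not pass. Other members parted. Perp, a membrane protein of p53-induced apoptosis, had -0.17 after RPLP1 removal (FDR 0.3) and rose by 0.93 after RPLP0 removal (FDR 6.22e-11) in the authors' deposited tables, a difference of -1.10 (SE 0.167). Ephx1, an epoxide hydrolase, had -0.02 after RPLP1 removal (FDR 0.957) and rose by 0.86 after RPLP0 removal (FDR 0.000703) in the authors' deposited tables, a difference of -0.88 (SE 0.259). Sesn2 and Ddit4, which restrain the kinase mTORC1 under stress, had 0.01 and 0.08 after RPLP1 removal, not called, and rose by 0.50 (FDR 9.93e-09) and 0.60 (FDR 4.18e-06) after RPLP0 removal in the authors' deposited tables. The death receptor gene Tnfrsf10b differed by -0.60 (SE 0.126) on mRNA and -0.75 (SE 0.16) on footprints.

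**Figure D4:**
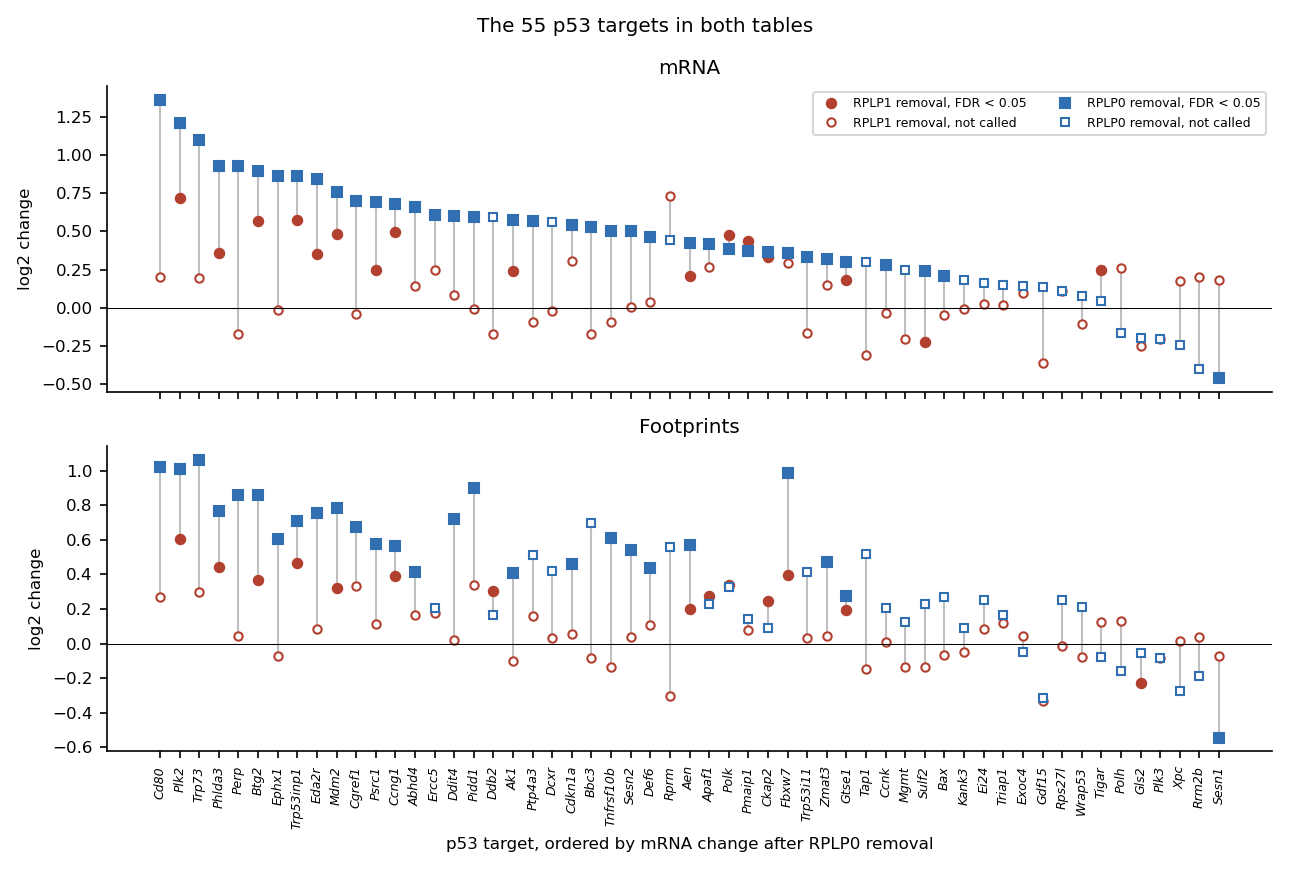
Log2 change of each of the 55 p53 targets in both tables, ordered by the mRNA change after RPLP0 removal; circles are RPLP1 removal and squares RPLP0 removal, filled where the authors' FDR is below 0.05. Filled squares are more frequent (36 of 55 higher on mRNA) and mostly lie above the circles of the same gene.

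Targets of ATF4, the activator of amino acid and stress genes, included Chac1 and Herpud1, which had the largest mRNA decreases shared by the lines. The median mRNA change over 44 members was -0.16 after RPLP1 removal and -0.15 after RPLP0 removal. By the calls 17 fell after RPLP1 removal and 13 after RPLP0 removal, 7 of them the same genes. Over all genes 8.76% fell after RPLP1 removal and 5.03% after RPLP0 removal, and 109 of 11951 fell in both. Chac1, which degrades glutathione, had mRNA changes of -1.76 after RPLP1 removal (FDR 3.14e-05) and -1.54 after RPLP0 removal (FDR 0.000662) in the authors' deposited tables. Its footprint changes were -1.42 after RPLP1 removal (FDR 0.000392) and -1.13 after RPLP0 removal (FDR 0.0409) in the same authors' deposited tables. Its difference was -0.21 (SE 0.476) on mRNA. Herpud1, a factor of protein degradation at the endoplasmic reticulum, fell by 1.18 after RPLP1 removal (FDR 0.000139) and by 0.95 after RPLP0 removal (FDR 0.000572) in the authors' deposited tables, a difference of -0.23 (SE 0.323). Slc1a4 fell by 0.62 after RPLP1 removal (FDR 0.000358) and by 0.63 after RPLP0 removal (FDR 0.000779) in the authors' deposited tables, a difference of 0.01 (SE 0.197). These differences did not pass, which does not show that the changes were equal. In the same list 8 members had a lower difference (18.2%) and 2 a higher one, and 4 of the 8 are the amino acid transporters Slc7a5, Slc3a2, Slc7a3 and Slc38a2 described above. Ddit4 is also among the 8, and both Ddit4 and Sesn2 are counted with the p53 targets too. Herpud1 is counted again with the unfolded protein response.

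Chac1, Herpud1 and Slc1a4 share a match to the ATF4 composite element in their promoter windows. Its letters TGATGNAAN, on either strand, occur in 13 of 35 ATF4 targets with a window (37.1%) against 2.58% of all genes with one, in 5 of 83 mRNAs called lower in both lines (6.02%) and in none of 61 called lower after RPLP1 removal and higher after RPLP0 removal. Each of these genes has 1 match, on the strand opposite to the gene, and all have the same 9 letters, printed in capitals within sequence from RefSeq on GRCm38.p6. Chac1 and Herpud1 lie on the plus strand and Slc1a4 on the minus strand. The match of Slc1a4 begins 5 bases before the start site and runs across it, and no bases after the match are shown.
Chac1 chr2:119351024-119351080: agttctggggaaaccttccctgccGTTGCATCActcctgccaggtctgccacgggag
Herpud1 chr8:94386292-94386348: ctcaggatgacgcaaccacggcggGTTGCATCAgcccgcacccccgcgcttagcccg
Slc1a4 chr11:20332710-20332742: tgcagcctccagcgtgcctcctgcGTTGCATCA

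The unfolded protein response adjusts the folding capacity of the endoplasmic reticulum. Of its 31 mRNAs, 13 fell after RPLP1 removal and 10 fell after RPLP0 removal, beside 8.76% and 5.03% of all genes. Of these, 6 fell in both lines, as did 109 of all 11951 genes. The medians of the list were -0.22 after RPLP1 removal and -0.08 after RPLP0 removal. The difference was lower for 7 members (22.6%) and higher for 2, and no member passed on footprints. Syvn1, the ubiquitin ligase of endoplasmic reticulum-associated degradation, fell by 0.52 after RPLP1 removal (FDR 0.00127) and had 0.15 after RPLP0 removal (FDR 0.333) in the authors' deposited tables, a difference of -0.67 (SE 0.154). The sensor kinase gene Eif2ak3 (PERK) fell by 0.35 after RPLP1 removal (FDR 0.0265) and had 0.21 after RPLP0 removal (FDR 0.207) in the authors' deposited tables, a difference of -0.56 (SE 0.158). Derl1 and the chaperone partner Dnajb11 differed by -0.42 (SE 0.115) and -0.39 (SE 0.113). The chaperone genes Hspa5 and Hsp90b1 of the lumen were named after their values were seen. Hspa5 (BiP) fell by 0.22 after RPLP1 removal (FDR 0.00652) and by 0.43 after RPLP0 removal (FDR 5.99e-08), a difference of 0.21 (SE 0.0908) that did not pass, and Hsp90b1 fell by 0.18 after RPLP1 removal (FDR 0.0203) and by 0.44 after RPLP0 removal (FDR 7.03e-09), a difference of 0.26 (SE 0.0868) that passed, in the authors' deposited tables.

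Hspa5 and Syvn1, whose differences had opposite signs, both carry the ER stress element. Its letters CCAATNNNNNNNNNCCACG were found on either strand for 9 of 25 genes of the list with a window (36.0%) against 0.191% of all genes with one (18 of 9440). Among those 18 the difference was lower for Canx and Syvn1 and higher for Hnrnpa3, Hsp90b1 and Pdia6. The sites, both in genes of the plus strand on GRCm38.p6 from RefSeq, are shown with 24 bases on each side and the element in capitals.
Hspa5 chr2:34772001-34772067: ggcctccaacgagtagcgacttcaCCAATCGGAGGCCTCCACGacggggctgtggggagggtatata
Syvn1 chr19:6046508-6046574: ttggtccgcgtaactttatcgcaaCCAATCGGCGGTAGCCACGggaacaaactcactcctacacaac

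Heat shock genes, chaperones of the cytosol and mitochondria, had differences of the other sign than the secretory groups. Of 20 members, 11 had a higher mRNA difference (55.0% against 4.86% of all genes) and none a lower one. By the calls 7 rose after RPLP1 removal and none after RPLP0 removal, beside 5.77% and 5.14% of all genes. The calls as lower were 1 after RPLP1 removal and 4 after RPLP0 removal, beside 8.76% and 5.03% of all genes. The medians of the 20 members were 0.12 after RPLP1 removal and -0.05 after RPLP0 removal on mRNA. On footprints they were 0.12 after RPLP1 removal and -0.03 after RPLP0 removal, and 3 members passed. Dnaja1, a co-chaperone of HSP70, rose by 0.47 after RPLP1 removal (FDR 1.74e-05) and had -0.09 after RPLP0 removal (FDR 0.205) in the authors' deposited tables, a difference of 0.56 (SE 0.0931). Hsph1, an exchange factor of HSP70, rose by 0.40 after RPLP1 removal (FDR 0.000189) and had -0.11 after RPLP0 removal (FDR 0.239) in the authors' deposited tables, and its footprints rose by 0.29 after RPLP1 removal (FDR 0.00148); the differences were 0.51 (SE 0.1) on mRNA and 0.45 (SE 0.0984) on footprints. In Hspd1, the mitochondrial chaperonin, and Fkbp4, a co-chaperone of HSP90, the RPLP0 line was the one called: Hspd1 had 0.08 and Fkbp4 0.02 after RPLP1 removal, not called, and Hspd1 fell by 0.31 (FDR 5.19e-07) and Fkbp4 by 0.33 (FDR 1.6e-06) after RPLP0 removal in the authors' deposited tables.

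The heat shock element, searched as GAANNTTCNNGAA on both strands, was found for 4 of 15 heat shock genes with a window (26.7%) against 0.54% of all genes with one. The 4 genes are Chordc1, Hspd1, Hspe1 and Hsph1, and the mRNA difference was higher for each. Their median difference was 0.385, against 0.277 for list members with a window but without the element. Over all 51 genes with the element the median difference was 0.002. Among these 51 the difference was higher for 7, the 4 named here included, and lower for 3. Hspd1 and Hspe1 are divergent neighbours, so a match can lie in the windows of both. The match in Hspd1, on the minus strand of GRCm38.p6 from RefSeq, is on the strand opposite to the gene and is shown with 24 bases on each side and the element in capitals; another match in the window overlaps it.
Hspd1 chr1:55088040-55088100: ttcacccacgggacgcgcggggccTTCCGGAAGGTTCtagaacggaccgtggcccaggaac

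Genes of cholesterol synthesis and uptake held both shared decreases and oppositely called members. Of 32 mRNAs, 17 fell after RPLP1 removal and 12 fell after RPLP0 removal, beside 8.76% and 5.03% of all genes. Of these, 6 fell in both lines, as did 109 of all 11951 genes. The medians of the list were -0.26 after RPLP1 removal and -0.20 after RPLP0 removal. Hmgcs1 and Idi1 encode enzymes of the mevalonate route. Hmgcs1 rose by 0.19 after RPLP1 removal (FDR 0.0244) and fell by 0.62 after RPLP0 removal (FDR 6.15e-10) in the authors' deposited tables, a difference of 0.81 (SE 0.107). Idi1 rose by 0.20 after RPLP1 removal (FDR 0.032) and fell by 0.44 after RPLP0 removal (FDR 9.3e-06) in the authors' deposited tables, a difference of 0.64 (SE 0.106). The regulators Scap and Srebf2 had differences of the other sign. Scap, which escorts the SREBP transcription factors to the Golgi, fell by 0.38 after RPLP1 removal (FDR 0.00769) and rose by 0.30 after RPLP0 removal (FDR 0.00347) in the authors' deposited tables, a difference of -0.68 (SE 0.134). Srebf2, the SREBP of sterol synthesis, fell by 0.48 after RPLP1 removal (FDR 3.36e-05) and had -0.05 after RPLP0 removal (FDR 0.554) in the authors' deposited tables, a difference of -0.42 (SE 0.1). In all, 4 members were higher (12.5%) and 5 lower (15.6%) in the difference.

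Genes of the translation machinery were read against the shares over all genes, 4.86% higher and 7.26% lower in the mRNA difference. Ribosome biogenesis factors had 10 of 70 members higher (14.3%) and 1 lower, with medians of 0.12 after RPLP1 removal and 0.01 after RPLP0 removal. Efl1, which releases the anti-association factor from new large subunits, rose by 0.54 after RPLP1 removal (FDR 0.00142) and had -0.19 after RPLP0 removal (FDR 0.18) in the authors' deposited tables, a difference of 0.74 (SE 0.159), and its footprint difference of 0.37 (SE 0.113) was the 1 that passed. Nucleolin, encoded by Ncl, rose by 0.23 after RPLP1 removal (FDR 0.0252) and had -0.11 after RPLP0 removal (FDR 0.0843) in the authors' deposited tables. Large-subunit ribosomal protein mRNAs had 8 of 46 members higher (17.4%) and 1 lower, while small-subunit ones had 1 of 31 higher (3.23%, below that of all genes) and none lower. Rpl22l1, the paralog of Rpl22, had -0.06 after RPLP1 removal (FDR 0.603) and fell by 0.47 after RPLP0 removal (FDR 2.35e-06) in the authors' deposited tables. On footprints the ribosomal protein lists had medians of 0.07 after RPLP1 removal and 0.14 after RPLP0 removal for the large subunit, and 0.07 after RPLP1 removal and 0.17 after RPLP0 removal for the small subunit; of both lists, Rplp0 alone passed. Ribosomal protein genes have many processed pseudogenes, so the assignment of their reads is uncertain.

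Initiation factors had 5 of 43 members higher (11.6%) and 2 lower on mRNA, led by Eif5b. Aminoacyl-tRNA synthetases had 3 of 20 higher (15.0%) and 1 lower (5.0%, below that of all genes): Lars rose by 0.18 after RPLP1 removal (FDR 0.0469) and fell by 0.17 after RPLP0 removal (FDR 0.0352) in the authors' deposited tables, whereas Mars fell by 0.21 after RPLP1 removal (FDR 0.0197) and had 0.04 after RPLP0 removal (FDR 0.712) in the same authors' deposited tables. Among elongation and termination factors, 1 of 21 passed on mRNA (4.76%, near that of all genes): the release factor gene Gspt1 had 0.15 after RPLP1 removal (FDR 0.0962) and fell by 0.17 after RPLP0 removal (FDR 0.0351) in the authors' deposited tables, a difference of 0.33 (SE 0.0875). No member of that list passed on footprints, and none of the elongation factors that the stalk recruits passed on mRNA. Of 25 genes for sensing and rescue of stalled ribosomes, 2 were higher (8.0%) and 1 lower (4.0%) on mRNA. Footprints of Gigyf2, a translational repressor recruited to collided ribosomes, had 0.07 after RPLP1 removal (FDR 0.298) and fell by 0.32 after RPLP0 removal (FDR 0.0392), and those of the ubiquitin ligase gene Rnf10 had -0.10 after RPLP1 removal (FDR 0.325) and rose by 0.44 after RPLP0 removal (FDR 0.0325) in the authors' deposited tables.

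Genes of DNA replication and the G1/S transition had 8 of 44 members higher (18.2%) and none lower in the mRNA difference. By the calls 1 fell after RPLP1 removal and 10 fell after RPLP0 removal, beside 8.76% and 5.03% of all genes. Cdc6 and Gmnn load and restrain the replicative helicase. Cdc6 had 0.10 after RPLP1 removal (FDR 0.45) and fell by 0.29 after RPLP0 removal (FDR 0.00585) in the authors' deposited tables, a difference of 0.39 (SE 0.114). Gmnn had 0.09 after RPLP1 removal (FDR 0.374) and fell by 0.32 after RPLP0 removal (FDR 0.000417) in the authors' deposited tables, a difference of 0.41 (SE 0.0971). Footprint differences passed for 4 members, among them Rfc1 (0.43, SE 0.128) and Mcm10 (0.25, SE 0.0797). Mitosis genes had 4 of 35 higher (11.4% against 4.86% of all genes) and none lower, such as Top2a (0.29, SE 0.0781) and Tpx2 (0.30, SE 0.0882). Proteasome subunits had 6 of 35 higher (17.1%) and 1 lower (2.86%), and tubulins and actins 4 of 23 higher (17.4%) and none lower. The 337 zinc finger genes had medians of 0.15 after RPLP1 removal and 0.04 after RPLP0 removal, and 24 were higher (7.12%) and 3 lower (0.89%) in the difference; these families hold near-identical copies, so the assignment of their reads is uncertain.

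Among pluripotency genes, 3 of 30 mRNAs were higher and 4 lower (13.3% against 7.26% of all genes) in the difference. Tfcp2l1, a factor of naive pluripotency, had 0.12 after RPLP1 removal (FDR 0.128) and fell by 0.42 after RPLP0 removal (FDR 2.32e-07) in the authors' deposited tables, a difference of 0.54 (SE 0.089). Gdf3, a ligand of the TGF-beta family, had -0.18 after RPLP1 removal (FDR 0.168) and rose by 0.37 after RPLP0 removal (FDR 8.57e-06) in the authors' deposited tables, a difference of -0.55 (SE 0.113). Utf1 fell by 0.43 after RPLP1 removal (FDR 6.69e-05) and had 0.01 after RPLP0 removal (FDR 0.9) in the authors' deposited tables, a difference of -0.44 (SE 0.0925). A separate list of 16 germ-layer and primed markers had a median mRNA difference of 0.21, with 11 differences above 0 and 5 below. The mRNA difference passed as higher for 1 member, Dnmt3a (0.35, SE 0.122), and as lower for 1 (6.25% each). On footprints Eomes passed as higher (0.53, SE 0.16) and 1 member as lower. Nodal, the ligand of the Nodal pathway, fell by 0.31 after RPLP1 removal (FDR 0.0349) and rose by 0.19 after RPLP0 removal (FDR 0.0301), while its inhibitor Lefty1 fell in both lines, by 0.78 after RPLP1 removal (FDR 5.47e-06) and by 0.54 after RPLP0 removal (FDR 2.8e-06), in the authors' deposited tables. Of 32 immediate-early genes, 17 had an mRNA difference below 0 and 15 above. The mRNA difference passed as lower for 3 (9.38%) and as higher for 1 (3.12%), Etv5 (0.32, SE 0.0778). Cyr61 and Ctgf of that list, secreted matricellular proteins induced by YAP, differed by -0.70 (SE 0.152) and -0.59 (SE 0.122) on mRNA and by -0.47 (SE 0.136) and -0.53 (SE 0.129) on footprints. Of the 13 mRNAs that mitochondrial DNA encodes for the respiratory chain, 6 were lower in the difference (46.2%) and none higher. On footprints 1 of the 13 was lower in the difference (7.69% against 3.13% of all genes) and none higher. Their footprint medians were 0.05 after RPLP1 removal and 0.25 after RPLP0 removal. The mt-Atp6 mRNA fell by 0.23 after RPLP1 removal (FDR 0.0058) and had 0.14 after RPLP0 removal (FDR 0.131) in the authors' deposited tables, a difference of -0.37 (SE 0.0888). The nuclear-encoded respiratory chain had 3 of 78 higher (3.85%) and 5 lower (6.41%), both below the 4.86% and 7.26% of all genes.

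Other genes called in the same direction in both lines follow. Tgfbi, an adhesion protein of the matrix, fell by 0.84 after RPLP1 removal (FDR 0.000686) and by 0.57 after RPLP0 removal (FDR 0.000999) in mRNA, and its footprints fell by 0.47 (FDR 0.00578) after RPLP1 removal and 0.60 (FDR 0.00503) after RPLP0 removal, per the authors' deposited tables. Igsf3 fell by 0.55 after RPLP1 removal (FDR 3.14e-05) and by 0.40 after RPLP0 removal (FDR 0.000322) in the authors' deposited tables. The neurotrophin receptor gene Ngfr and the growth factor gene Fgf15 also had fewer footprints in both lines, by 0.40 and 0.50 after RPLP1 removal and by 0.49 and 0.76 after RPLP0 removal in the authors' deposited tables. Among shared increases outside p53 targets, footprints of Phlda1 rose by 0.67 after RPLP1 removal (FDR 0.00994) and 0.74 after RPLP0 removal (FDR 0.0118), and those of Arap2 by 0.53 (FDR 0.0101) after RPLP1 removal and 0.68 (FDR 0.00779) after RPLP0 removal in the authors' deposited tables. Pcdhgb2 mRNA was also called higher in both lines, but it shares exons with its neighbours in the protocadherin cluster, and its value is uncertain. Zfp750 rose in mRNA by 0.67 after RPLP1 removal (FDR 0.013) and by 1.62 after RPLP0 removal (FDR 2.55e-06) in the authors' deposited tables, and its footprint difference of -1.01 (SE 0.299) passed although both lines were higher.

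Of the 10 largest higher mRNA differences that passed, among genes with an implied SE below 0.25 in both lines, 5 were called after RPLP0 removal alone, as lower. Map2k6, a kinase that activates p38, had 0.30 after RPLP1 removal (FDR 0.292) and fell by 0.75 after RPLP0 removal (FDR 0.00957) in the authors' deposited tables, a difference of 1.05 (SE 0.289). Rnf213, a ubiquitin ligase, had 0.12 after RPLP1 removal (FDR 0.458) and fell by 0.78 after RPLP0 removal (FDR 1.96e-05) in the authors' deposited tables, a difference of 0.90 (SE 0.183), and its footprints differed by 0.54 (SE 0.132). Castor2, of the arginine sensors of mTORC1, differed by 0.91 (SE 0.325), the membrane repair gene Dysf by 0.90 (SE 0.257) and the actin assembly gene Fhod3 by 0.83 (SE 0.249), each called lower after RPLP0 removal alone. Among genes with an implied SE below 0.25 in both lines, the largest lower footprint differences were those of the receptor gene Fgfr4 (-1.23, SE 0.319), the tight junction gene Cldn3 (-1.08, SE 0.248) and Cpt1c (-1.02, SE 0.213). The largest higher ones were those of Pdk4, a kinase that inhibits pyruvate dehydrogenase, with 0.38 after RPLP1 removal and -0.62 after RPLP0 removal in the authors' deposited tables, and of Zfp869 (0.99, SE 0.252). Ibtk footprints fell in both lines, with -0.31 after RPLP1 removal (FDR 0.00578) and -1.11 after RPLP0 removal (FDR 8.43e-05) in the authors' deposited tables, and the difference of 0.80 (SE 0.212) passed.

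Differences in footprints and in mRNA overlapped in part. Across the 11951 genes the differences had a Pearson correlation of 0.452 and a Spearman correlation of 0.532, again as a description. Of the mRNAs with a lower difference, 255 were also lower on footprints, 612 did not pass there and 1 was higher; 836 of the 868 (96.3%) had a footprint difference of the same sign, as did 71.2% of all genes. Of those with a higher difference, 83 were also higher on footprints, 498 did not pass there and none was lower. Seen from the footprints, 110 of the 194 higher differences and 119 of the 374 lower ones had no mRNA difference that passed. The footprint change minus the mRNA change, a measure of translation efficiency, differed between the lines for 1 gene (0.00837% of all genes), Pabpc1, with 611 genes at an unadjusted p below 0.05. Pabpc1, the cytoplasmic poly(A)-binding protein, rose in footprints by 0.19 after RPLP1 removal (FDR 0.0108) and had -0.22 after RPLP0 removal (FDR 0.0581), while its mRNA had -0.06 after RPLP1 removal (FDR 0.38) and rose by 0.10 after RPLP0 removal (FDR 0.0273), in the authors' deposited tables. Its translation efficiency changed by 0.25 (SE 0.066) after RPLP1 removal and by -0.33 (SE 0.0787) after RPLP0 removal, and the difference was 0.57 (SE 0.103). The median SE of such a difference over all genes was 0.212, and Galnt2, with a difference of 1.51 (SE 0.37), did not pass, so differences several times the SE could go uncalled. With errors 1.5 times as large Pabpc1 did not pass, and with a correlation of 0.5 assumed between the errors of the assays 75 genes were higher and 130 lower.

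**Figure D5:**
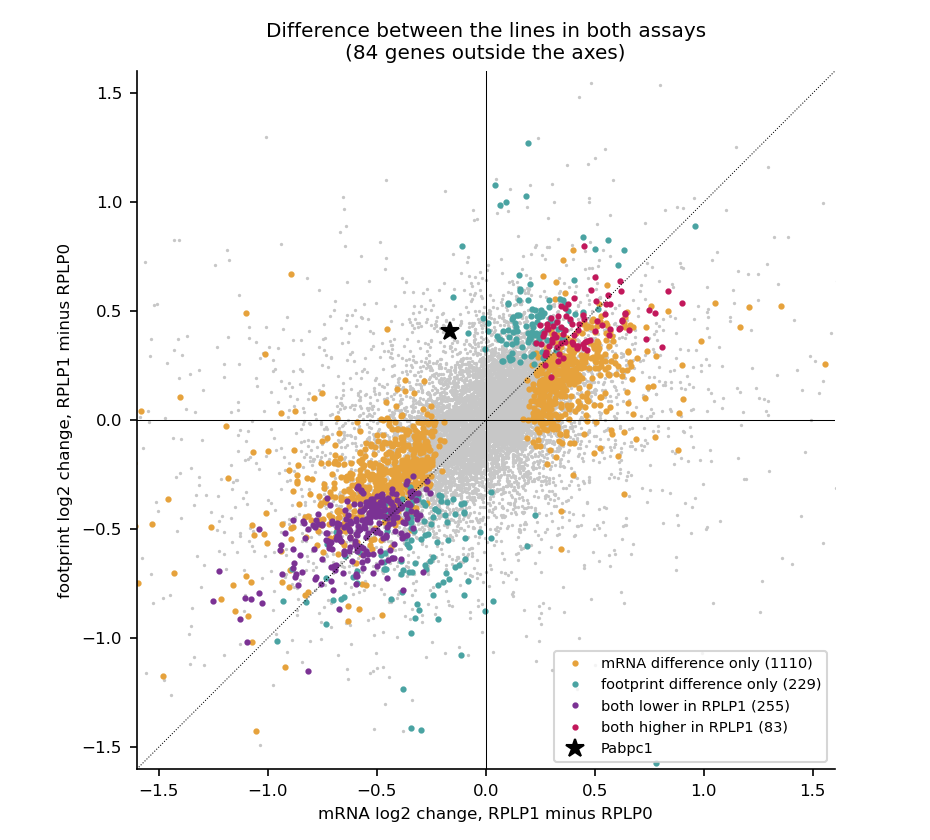
Difference between the lines (RPLP1 minus RPLP0, log2) in mRNA on the horizontal axis and in footprints on the vertical axis, 1 point per gene, with equal values on the dotted line. Coloured points passed the difference test, 255 as lower and 83 as higher in both assays, grey points passed in neither, and the star is Pabpc1.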

How the data were processed

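Ribosome footprints and polyadenylated mRNA were measured in 14 of the series' 21 samples for the comparison of the RPLP1 and RPLP0 lines. Per the file headers, the authors deposited a log2 fold change and an FDR (an adjusted p-value) per gene for mRNA and for footprints in each line. No aligner, counter, annotation or test was named in the sources used here, and totals per sample were not analysed, so the depth is unknown. Tables were joined on the gene identifier, and 16 date-converted and 2 duplicated symbols were left out. From each FDR a p-value was recovered by reversing the Benjamini-Hochberg adjustment, with interpolation where FDRs were tied. Dividing a fold change by the normal quantile of its p gave the standard error. These values are approximate where the authors adjusted over more genes than they listed. The difference between lines was tested two-sided by a normal approximation with Benjamini-Hochberg adjustment over 11951 genes, called below 0.05; the lines have separate controls, and errors were taken as independent. This approximation gives no p for a single gene in the text. It was tested on simulated data whose errors were normal, independent and of the implied size. Such a simulation cannot show whether the real errors have that size or are independent. Translation efficiency is the footprint change minus the mRNA change, with the 4 errors combined.

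The members and gene lists were chosen with earlier results of these data known. Genes were named by rule: per assay the 10 largest differences in each direction among called genes with an error below 0.25 in both lines, up to 8 genes of each shared and opposite class, up to 4 members of each list by the p of the difference, and the stalk genes. Promoter windows, 250 bases before to 50 after the start, came from RefSeq (GRCm38.p6) and matched 9440 genes by symbol. Alternatives varied the errors, their correlation, the centring, the call threshold and the genes kept. Python 3.11.15, NumPy 2.4.6, pandas 2.3.3, SciPy 1.17.1 and Matplotlib 3.10.9 were used. The values of 1 lysosomal gene are not reported here.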

Additional observations from a re-analysis of the deposited data

Results flagged for a closer look

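Differences between the lines under the same contrast were found by the test of the difference for 581 mRNAs that were higher and 868 that were lower after RPLP1 removal than after RPLP0 removal, for 194 genes higher and 374 lower on footprints, and for 1 gene, Pabpc1, on translation efficiency (0.57). Every gene described above as passing the difference test meets the same condition. Those called in both lines in opposite directions were 82 mRNAs lower after RPLP1 removal and higher after RPLP0 removal and 29 the other way. Their passing follows largely from that selection. Among the 82, those whose smaller change was the largest were Galnt2 (difference -1.40), Vwa1 (-1.18), Man2b1 (-0.92), Atraid (-0.88), Slc28a1 (-0.86), Slc27a3 (-0.82), Bscl2 (-0.78) and Acp2 (-0.77). Among the 29 they were Zfp459 (0.84), Eif5b (0.78), Igf2bp3 (0.56), Mphosph8 (0.55), Zfp229 (0.55), Rbmxl1 (0.53), Ak4 (0.47) and Bex4 (0.47). On footprints they were Slc33a1 (-0.63), Flna (-0.59) and Parp4 (0.79). Rplp0 footprints differed by -0.74.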

How the results depend on the processing

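The difference test rests on errors implied by the authors' FDRs. With implied errors 1.5 times as large, 6 mRNAs were higher and 29 lower, footprints gave 0 and 0, and translation efficiency 0; of 166 genes named in the rule whose mRNA difference passed, 18 passed under every alternative, and none of 110 on footprints. At an error correlation of 0.3 between the lines, 1173 mRNAs were higher and 1426 lower, 881 and 1098 on footprints, and 2 and 7 for translation efficiency. With a correlation of 0.5 between the assays, translation efficiency gave 75 higher and 130 lower. At the authors' FDR below 0.1, mRNA calls in both lines were 147 higher, 181 lower, 147 lower after RPLP1 and higher after RPLP0 removal, and 63 the other way; footprints gave 75 lower, 38 and 12. Below 0.01 the mRNA counts were 26, 46, 26 and 2, and the footprint counts 6, 3, 0 and 0. Subtracting the median of each line, keeping only genes with an error below 0.25, dropping the interpolation and keeping the date-converted and duplicated symbols left these counts within 1.5 times. Under median subtraction the mRNA differences of Ermard and Rps27l, both near 0 and not called, changed sign, at 0.00227 and 0.0027. No paired analysis was possible because the tables hold the authors' comparisons and no value per sample; leaving out replicates was not run for the same reason.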

Other observations

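Gene families defined by the leading letters of their symbols, with at least 8 members, were looked at after the values were seen and without a test. Of 188 families, 20 had a median mRNA difference below -0.3 and 2 had one above 0.3. The counts within families stand beside 7.26% lower and 4.86% higher in the mRNA difference over all genes. The palmitoyltransferases named Zdhhc, which attach lipids to proteins, had medians of -0.18 after RPLP1 removal and 0.17 after RPLP0 removal over 18 members, with 8 lower in the difference and none higher. The Tmed cargo receptors of the early secretory route had -0.19 after RPLP1 removal and 0.19 after RPLP0 removal over 9 members, with 4 lower. The lipoprotein receptor relatives named Lrp had -0.35 after RPLP1 removal and -0.02 after RPLP0 removal over 9 members, with 5 lower. At the other end the annexins, which bind membranes in a calcium-dependent way, had 0.24 after RPLP1 removal and 0.00 after RPLP0 removal over 9 members, with 3 higher and none lower.

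The series also held a line for removal of RACK1, a protein of the small subunit. It was treated for 8 h with IAA or DMSO and had 3 mRNA samples per treatment and 1 combined footprint sample. Genes that differed between the stalk lines were also looked up in the table for RACK1 removal. Of the 374 genes with a lower footprint difference, 372 were listed there, with a median footprint change of -0.084 after RACK1 removal against -0.014 over all 11855 compared genes listed, and 19.9% were above 0 against 44.8%. The 194 genes with a higher footprint difference had a median of -0.016, with 43.8% above 0. For the 865 listed mRNAs with a lower difference, the median mRNA change after RACK1 removal was 0.028, with 55.8% above 0 against 50.1%. For the 580 listed mRNAs with a higher difference it was -0.07, with 32.6% above 0.

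Genes listed for 1 line alone were not compared. Of 305 genes listed for the RPLP1 line alone, 1 was higher and 4 were lower on mRNA, and 12 were higher and 3 lower on footprints by the authors' deposited table. Of 384 listed for the RPLP0 line alone, 8 were higher and 1 was lower on mRNA, and 4 were higher and 1 lower on footprints by the authors' deposited table.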
